A study of Mus musculus with 4 samples.

Results

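Translation initiation factors are the proteins that bring the ribosome, the initiator tRNA and the mRNA together at a start codon. Their genes were taken by name: every row of the deposited table whose symbol begins with Eif1 to Eif6 and whose mean over the libraries was at least 1 RPKM (the reads of a gene corrected for its length and for the library's mapped reads), without the 4 Eif2ak kinase genes and without Eif2s3y. This left 51 genes of 23240 in the table, from 58 rows that match the name. The other 2 rows were under 1 RPKM: Eif2c4 was between 0.0292 and 0.0399 RPKM, and Eif4e1b was listed at 0 in each library. Just inside the threshold lay Eif2c3, with a mean of 1.58 RPKM, and Eif4ebp3, with 2.82 RPKM. All 51 genes are among the 9595 tested, since the test used the same minimum. Of the 51, 3 are Argonaute genes (Eif2c1, Eif2c2 and Eif2c3), whose proteins carry small RNAs in RNA silencing and are not initiation factors despite the older symbol.

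The RNA came from bone marrow of leukaemic mice, from cells gated as GFP+ BFP+ CD11b- Gr1- and called RUNX1-FLT3ITD AML (acute myeloid leukaemia) in the labels. Bone marrow cells were kept for 22 h in SFEM medium with FLT3L, SCF, IL3 and IL11, with either 200 nM 4OHT (4-hydroxytamoxifen, the active form of tamoxifen) or an equal volume of its solvent ethanol (EtOH). There were 4 libraries: 4OHT cultures of B6.Runx1-delta/delta and of Runx1-delta/+ cells, and EtOH cultures of the same genotypes. Each genotype thus had 1 library per culture condition. Genotype is also the replicate number, so a genotype difference cannot be told apart from one of mice or cultures. The labels do not say on which protein 4OHT acts here, and nothing in them says that the cultures of a genotype came from separate mice. The p-values rest on how far the 4OHT change differs between the genotypes, pooled with the spread of other genes. They do not measure a spread between mice within a genotype. Runx1 itself stood at 380.5 RPKM in delta/delta and 328 RPKM in delta/+ cells with 4OHT, against 568 and 555 RPKM with EtOH, and delta/delta cells were not lower than delta/+ cells. The deleted part of Runx1 is not given, so this value for the whole gene does not check the genotype labels.

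Depth recovered from the steps of the RPKM values was 36.7 M and 39.4 M mapped reads in the 4OHT libraries of delta/delta and delta/+ cells, against 34.6 M and 33.7 M with EtOH. Each initiation factor gene was supported by between 76 and 75796 reads in a library, with a median of 5624. Red cell RNA moved with treatment. Globin genes held 0.92% and 0.664% of the summed RPKM in the 4OHT libraries of delta/delta and delta/+ cells, against 12.3% and 7.66% in the EtOH libraries. Of 21 erythroid markers tested 20 fell (limma adjusted p under 0.05), against 10.2% of all genes tested, and none was at 0. Their summed level was 5796 and 4079 RPKM with 4OHT, against 66284 and 36074 RPKM with EtOH. In bulk RNA, fewer red cell precursors and less of their RNA per cell cannot be told apart. Of the sort markers, Itgam, which encodes CD11b, was between 0.168 and 0.358 RPKM in each library, while Ly6c2, which encodes a form of Ly6C that Gr1 antibodies can bind, had 7.48 RPKM in delta/delta and 1.52 RPKM in delta/+ cells with 4OHT, against 3.39 and 1.44 RPKM with EtOH. The immature cell markers were mixed. Myb had 99.2 RPKM in delta/delta and 84.5 RPKM in delta/+ cells with 4OHT, against 17.0 and 37.5 RPKM with EtOH. Myb was thus higher with 4OHT (limma adjusted p = 0.0130), and its part in the results was not tested. Flt3 had 16.8 and 39.7 RPKM with 4OHT, against 12.6 and 46.3 RPKM with EtOH. It was lower in delta/delta cells (limma adjusted p = 0.0204). Kit stood at 1.61 and 0.74 RPKM with 4OHT, against 0.0781 and 0.0973 RPKM with EtOH. Ctsg was between 0.355 and 1.93 RPKM and Prtn3 between 0.268 and 1.15 RPKM, while Cd34, Mpo and Elane were under 0.6 RPKM throughout. Of the lymphoid and endothelial markers, Ms4a1, Pax5, Cd3e and Cdh5 were listed at 0 in each library; the summed level of the list was at most 0.287 RPKM for B cells, and between 0.542 and 2.46 RPKM for T and NK cells, most of it Lck. The stromal and endothelial list summed to 3.64 and 12.05 RPKM with 4OHT, against 2.26 and 8.13 RPKM with EtOH. Nearly all of it was Pecam1, which was higher with 4OHT and lower in delta/delta cells (limma adjusted p = 0.0429 and 0.0126); its part in the results was not tested. Megakaryocyte markers fell in 6 of 8 tested genes and rose in 1, against 10.2% and 22.2% of all genes tested. Their summed level was 109 and 88.3 RPKM with 4OHT, against 195 and 234 RPKM with EtOH.

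Initiation in mammals begins with the ternary complex of eIF2, GTP and initiator tRNA, which joins the small ribosomal subunit together with eIF1, eIF1A, eIF3 and eIF5. The mRNA is brought by eIF4F, in which eIF4E holds the cap, eIF4G is the scaffold and the helicase eIF4A unwinds the leader. Cells adjust the process at a pair of points: kinases phosphorylate eIF2 alpha and so block its nucleotide exchanger eIF2B, and the 4E-binding proteins hold eIF4E until mTORC1 phosphorylates them. Several initiation factor genes, Eif4a1 and Eif5a among them, are described as targets of MYC, which binds the E-box CACGTG.

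Promoters of 4 of these genes are shown because they carry that E-box, in capitals, at different distances from the start. They are taken from RefSeq (build GRCm38.p6, whereas the submitters' processing notes name mm 9 for the expression values) and run in the direction of transcription. Eif4a1 and Eif5a rose with 4OHT, while Eif4g1 and Eif3f did not pass the test.
Eif4a1, chr11:69672580-69672639, minus strand: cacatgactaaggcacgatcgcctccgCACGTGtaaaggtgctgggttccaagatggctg
Eif5a, chr11:69921428-69921487, minus strand: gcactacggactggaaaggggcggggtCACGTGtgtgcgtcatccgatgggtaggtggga
Eif4g1, chr16:20672646-20672705, plus strand: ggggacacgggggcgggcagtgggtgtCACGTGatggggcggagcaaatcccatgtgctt
Eif3f, chr7:108934320-108934379, plus strand: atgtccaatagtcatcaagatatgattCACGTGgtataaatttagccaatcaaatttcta

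Positions are counted from the annotated transcription start, not from the first base shown. The E-box begins at -189 for Eif4a1, at -74 for Eif5a, at -54 for Eif4g1 and at -68 for Eif3f. Eif5a has several annotated starts: the same letters lie at -185 from another of them, and a further CACGTG at -178 from yet another. Eif4g1 has a further CACGTG at 15 after its start. None of the 4 stretches overlaps an annotated exon. A promoter of 300 bases (250 before the start and 50 after it) was found for 40 of the 51 genes. CACGTG, which reads the same on both strands, stood in 10 of the 40 (25%), against 8.09% of 27025 genes with such a promoter. The 27025 genes were not limited by their RPKM, as the 40 were, and the share among expressed genes was not computed. A gene with several annotated starts could have several promoters. Counted by promoter, CACGTG stood in 12 of 53 for the 40 genes, against 7.15% of 32851. The 10 genes with CACGTG are Eif1b, Eif3a, Eif3f, Eif3k, Eif4a1, Eif4e, Eif4g1, Eif4h, Eif5a and Eif5a2. They included 3 of the 7 matched genes that rose with 4OHT and 7 of the other 33. The difference between these shares was not tested. TGTGGT, the core of the RUNX motif, was searched on both strands and added after the data were seen. TGTGGT stood in promoters of 4 of the 40 genes (10%), namely Eif3a, Eif5a, Eif5a2 and Eif5b, against 18.9% of the same 27025 genes. A match of letters does not show that a factor was bound.

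The initiation factor genes were abundant as a class. Their median level was 66.6 and 71.9 RPKM with 4OHT in delta/delta and delta/+ cells, against 64.3 and 53.3 RPKM with EtOH, while the median of all tested genes lay between 11.6 and 13.4 RPKM. Eif5a and Eif4a1 led with 4OHT in both genotypes. They made up 27.2% and 29.7% of the summed RPKM of the 51 genes with 4OHT, against 18.1% and 22.4% with EtOH. The 51 genes together took 1.38% and 1.49% of all summed RPKM with 4OHT, against 0.987% and 1.17% with EtOH. These shares move with the globin share, since RPKM is a proportion, and the part of the globin fall in them was not tested.

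Which of these transcripts differed after 22 h of 4OHT was asked by setting the 4OHT cultures against the EtOH cultures of the same genotypes. Of the 51 genes 10 rose (Eif5a, Eif1a, Eif4a1, Eif4b, Eif4e3, Eif3g, Eif2b1, Eif2b5, Eif3a and Eif2b3), 1 fell (Eif4ebp1) and 40 did not pass (limma on log2(RPKM + 1), Benjamini-Hochberg adjusted p under 0.05 over 9595 genes). That is 21.6% of the genes against 32.4% of all genes tested; 19.6% rose, against 22.2% of all genes, and 2.0% fell, against 10.2%. The count of rises is thus near the background and is no result about the class. The median log2 change was 0.25 for the 51 genes and 0.16 for all genes. RPKM values were higher with 4OHT in both genotypes for 40 genes and lower in both for 7. The share of all genes that moved the same way in both genotypes was not computed. Between the conditions the values did not overlap for 24 genes higher with 4OHT (47.1%, against 38.4% of all genes). The same held for 2 genes lower with 4OHT (3.92%, against 16.9% of all genes). At an unadjusted p under 0.05 there were 20 of the 51 (39.2%, against 45.7% of all genes).

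Scaling and the genotype term decide how many pass. Under median-ratio scaling, which moved the median of all genes to -0.02, 3 genes rose (Eif1a, Eif4a1 and Eif5a) and 2 fell (Eif4ebp1 and Eif5), against 12.7% and 13.8% of all genes in those directions and 26.5% in either. The median of the 51 genes was then 0.05, and 21 of the 51 changes were below 0, against 9 on the deposited scale. With globin genes left out and the rest rescaled to the same sum, 7 rose and 2 fell, against 18.5% and 11.3% of all genes (29.8% in either direction); Eif2b3, Eif2b5 and Eif3a no longer passed and Eif5 did. Without the genotype term (no replicate block) none of the 51 passed in limma, against 2.43% of all genes. At an unadjusted p under 0.05 there were then 8 of the 51, against 2427 of all 9595 genes. With no filter on low values 5 passed (Eif1a, Eif2b5, Eif4a1, Eif4b and Eif5a), against 13.3% of all genes.

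**Figure D1:**
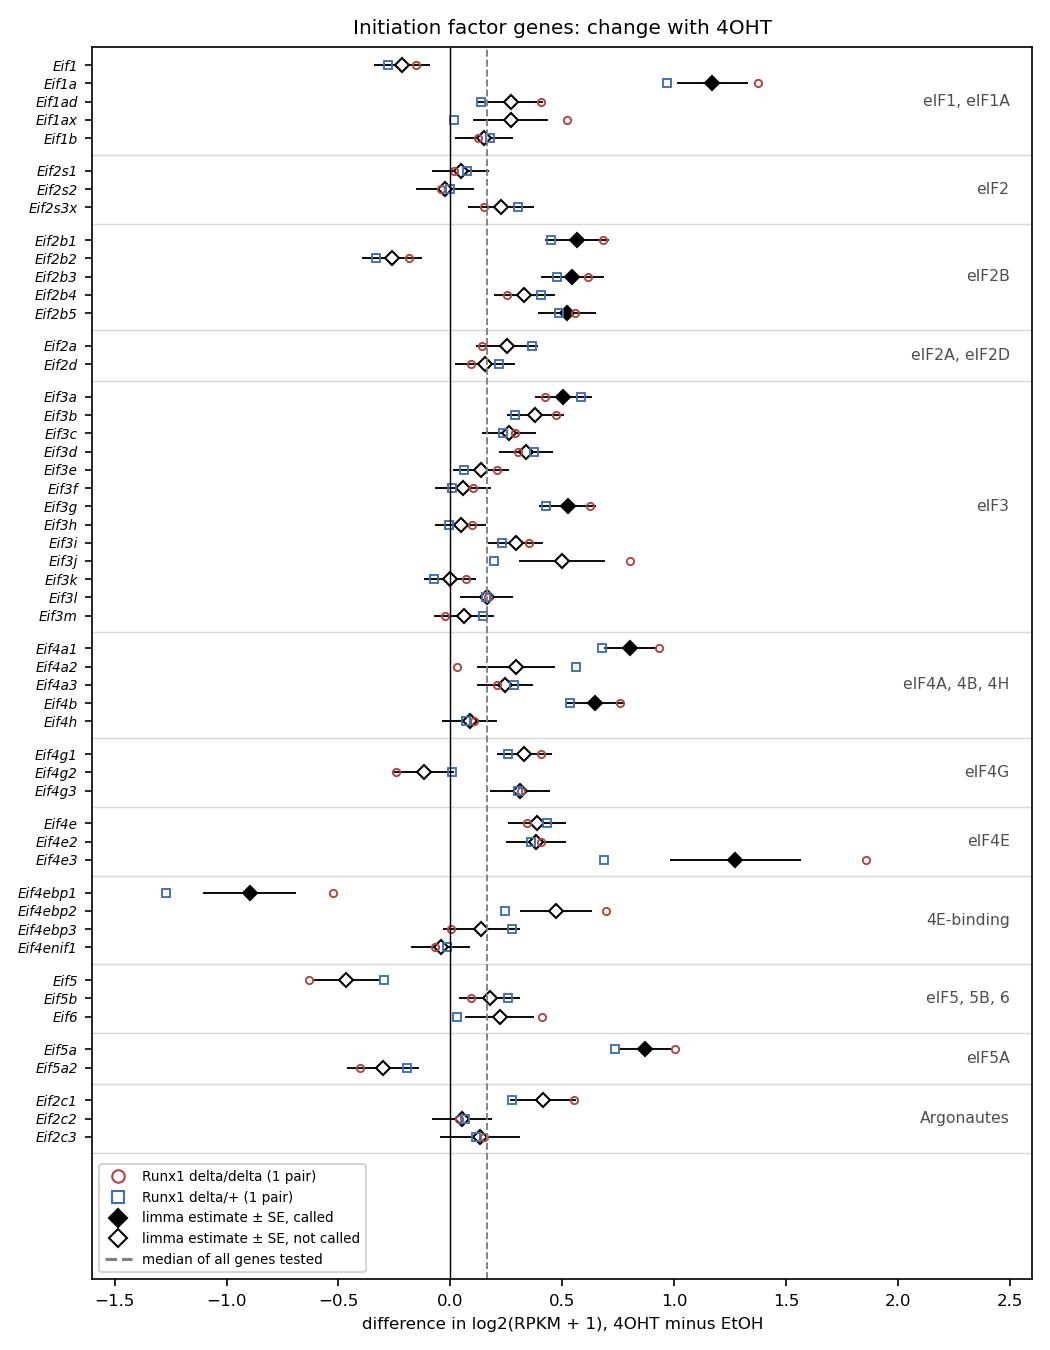
Difference in log2(RPKM + 1), 4OHT minus EtOH, of each of the 51 genes (horizontal axis), ordered by factor complex from top to bottom, with diamonds for the limma estimate (filled where called) and its standard error as bars, circles for the Runx1 delta/delta pair, squares for the Runx1 delta/+ pair and a dashed line at the median of all genes. The changes run from -0.90 for Eif4ebp1 to 1.27 for Eif4e3, most genes lie between 0 and 0.6, and the called rises are spread over 6 complexes.

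Among the cap-binding proteins and their inhibitors, Eif4e3 rose and Eif4ebp1 fell. Eif4e3, a cap-binding relative of eIF4E, had 6.89 RPKM in delta/delta and 7.47 RPKM in delta/+ cells with 4OHT, against 1.17 and 4.26 RPKM with EtOH. Both 4OHT libraries lay above both EtOH libraries, and the fold was far larger in delta/delta cells, 5.87 against 1.75 in delta/+ cells, a difference that 1 pair per genotype does not allow to be tested. The log2 change was 1.27 (SE 0.29, limma adjusted p = 0.0274; 0.0538 under median-ratio scaling). It is among the least abundant of these genes, with 636 and 740 reads with 4OHT against 102 and 361 with EtOH, and 14.8% of its annotated exonic bases are shared with Gm20696 on the same strand.

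Eif4ebp1 encodes 4E-BP1, which holds eIF4E away from eIF4G. Its level was 18.6 RPKM in delta/delta and 14.3 RPKM in delta/+ cells with 4OHT, against 27.2 and 35.9 RPKM with EtOH. The conditions did not overlap, and EtOH was 1.46 times the 4OHT level in delta/delta and 2.51 times in delta/+ cells. The log2 change was -0.90 (SE 0.21, limma adjusted p = 0.0284; 0.0227 under median-ratio scaling). Eif4ebp2, which encodes a related inhibitor, stood at 112 and 72.9 RPKM with 4OHT, against 68.5 and 61.3 RPKM with EtOH, and did not pass (log2 change 0.47, SE 0.16, limma adjusted p = 0.0754). Eif4ebp2 was therefore 6.0 and 5.10 times as abundant as Eif4ebp1 with 4OHT in delta/delta and delta/+ cells, against 2.52 and 1.71 times with EtOH. The lowest of the binding proteins, Eif4ebp3, was between 1.91 and 4.17 RPKM, and 67.3% of its annotated exonic bases are shared with a gene model on the same strand. Eif4enif1, whose product 4E-T carries eIF4E into the nucleus, was between 44.6 and 51.7 RPKM (log2 change -0.04).

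The cap-binding protein gene Eif4e itself had 76.8 RPKM in delta/delta and 70.6 RPKM in delta/+ cells with 4OHT, against 60.3 and 52.1 RPKM with EtOH. The conditions did not overlap, but the difference missed the threshold (log2 change 0.39, SE 0.13, limma adjusted p = 0.0730). The Eif4ebp1 level as a ratio to that of Eif4e was 0.242 and 0.202 with 4OHT in delta/delta and delta/+ cells, against 0.451 and 0.688 with EtOH; the proteins and their phosphorylation were not measured. Eif4e2, which encodes a cap-binding protein that does not join eIF4G, had 36.4 and 24.4 RPKM with 4OHT, against 27.2 and 18.7 RPKM with EtOH (log2 change 0.38, limma adjusted p = 0.0794).

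Eif4a1, which encodes the helicase of the cap complex, stood at 703 RPKM in delta/delta and 861 RPKM in delta/+ cells with 4OHT, against 368 and 538 RPKM with EtOH. Both 4OHT libraries were above both EtOH libraries, 1.91-fold in delta/delta and 1.60-fold in delta/+ cells. The log2 change was 0.80 (SE 0.12, limma adjusted p = 0.00866), and it also passed under median-ratio scaling (0.60, adjusted p = 0.0247). Its paralogue Eif4a2 had 30.1 and 79.2 RPKM with 4OHT, against 29.5 and 53.3 RPKM with EtOH, and the genotypes stood further apart than the conditions (log2 change with 4OHT 0.30, limma adjusted p = 0.245). The best alignment of the transcripts of this pair was 78.5% identical over 1040 bases, and how reads shared between copies were counted is not given.

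Eif4b, whose product stimulates the helicase, had 170.1 RPKM in delta/delta and 181 RPKM in delta/+ cells with 4OHT, against 100.03 and 125 RPKM with EtOH. The rise was 1.70-fold in delta/delta and 1.45-fold in delta/+ cells (log2 change 0.65, SE 0.13, limma adjusted p = 0.0188; 0.0562 under median-ratio scaling). Eif4h, which encodes a related cofactor, was higher in delta/delta than in delta/+ cells in both conditions, at 167 and 125 RPKM with 4OHT against 155 and 119 RPKM with EtOH (log2 change 0.09, limma adjusted p = 0.611). Eif4a3, which encodes the helicase of the exon junction complex, was between 89.6 and 112 RPKM (log2 change 0.24, limma adjusted p = 0.189).

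None of the 3 scaffold genes passed. Eif4g1 had 207 RPKM in delta/delta and 160.3 RPKM in delta/+ cells with 4OHT, against 156 and 134 RPKM with EtOH (log2 change 0.33, SE 0.12, limma adjusted p = 0.0952). It was higher with 4OHT in each genotype, and the 4OHT library of delta/+ cells lay only just above the EtOH library of delta/delta cells. Eif4g3 was between 23.7 and 34.7 RPKM, and Eif4g2, whose product DAP5 lacks the eIF4E-binding part, had 144 and 147 RPKM with 4OHT against 171 and 146 RPKM with EtOH (log2 change -0.12, limma adjusted p = 0.527).

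Among the factors that act on the scanning ribosome, Eif1a rose and its relatives did not pass. Eif1a had 26.2 RPKM in delta/delta and 38.6 RPKM in delta/+ cells with 4OHT, against 9.50 and 19.2 RPKM with EtOH. The conditions did not overlap, and the rise was 2.76-fold in delta/delta and 2.01-fold in delta/+ cells (log2 change 1.17, SE 0.16, limma adjusted p = 0.00746; 0.98 and adjusted p = 0.0154 under median-ratio scaling). Eif1ax, the X-linked gene for the same factor eIF1A, had 98.2 and 88.6 RPKM with 4OHT, against 68.0 and 87.7 RPKM with EtOH, and did not pass (log2 change 0.27, SE 0.17, limma adjusted p = 0.266). Eif1ax remained the more abundant of the pair in every library, 3.75 and 2.30 times Eif1a with 4OHT in delta/delta and delta/+ cells, against 7.16 and 4.56 times with EtOH. The best alignment of their transcripts was 84.4% identical over 461 bases, and how reads shared between copies were counted is not given.

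Eif1, which encodes the factor that guards start codon choice, had 119 RPKM in delta/delta and 134 RPKM in delta/+ cells with 4OHT, against 132 and 163 RPKM with EtOH. It was lower in each genotype with 4OHT, but the conditions overlapped (log2 change -0.21, SE 0.12, limma adjusted p = 0.239). Its near copy Eif1b, with transcripts 81.1% identical over 350 aligned bases, was at 73.2 and 45.8 RPKM with 4OHT, against 67.2 and 40.3 RPKM with EtOH (log2 change 0.15, limma adjusted p = 0.411). Eif1ad, which encodes a protein with an eIF1A domain, was between 24.8 and 36.6 RPKM.

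For 4OHT none of the 3 eIF2 subunit genes passed, and 3 of the 5 genes of its exchange factor eIF2B rose, against 22.2% of all genes; the difference between the complexes was not tested. Eif2s1, the alpha subunit and target of the stress kinases, had 75.9 RPKM in delta/delta and 71.9 RPKM in delta/+ cells with 4OHT, against 75.1 and 68.1 RPKM with EtOH (log2 change 0.05, SE 0.13, limma adjusted p = 0.808). Eif2s2, the beta subunit, had 46.7 and 90.5 RPKM with 4OHT, against 48.2 and 90.7 RPKM with EtOH, and the conditions were nearly equal within each genotype. Eif2s3x, an X-linked gene of the gamma subunit, was the lowest, at 5.15 and 7.17 RPKM with 4OHT against 4.53 and 5.63 RPKM with EtOH (log2 change 0.23, SE 0.15, limma adjusted p = 0.284). The alpha subunit was thus between 10.03 and 16.6 times the X-linked gamma subunit per length. Its Y-linked copy Eif2s3y, with transcripts 86.4% identical over 1426 aligned bases, was not among the 51 genes; its levels were 5.42 and 15.0 RPKM with 4OHT, against 6.94 and 17.7 RPKM with EtOH.

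In eIF2B, Eif2b1 (alpha) had 36.9 RPKM in delta/delta and 34.2 RPKM in delta/+ cells with 4OHT, against 22.6 and 24.7 RPKM with EtOH. It rose 1.63-fold and 1.38-fold in these genotypes (log2 change 0.57, SE 0.14, limma adjusted p = 0.0343). Eif2b5, which encodes the catalytic epsilon subunit, had 67.4 and 56.0 RPKM with 4OHT, against 45.5 and 39.7 RPKM with EtOH (log2 change 0.52, SE 0.13, limma adjusted p = 0.0345). Eif2b3 (gamma) had 12.3 and 10.9 RPKM with 4OHT, against 7.71 and 7.53 RPKM with EtOH (log2 change 0.55, SE 0.14, limma adjusted p = 0.0361). For each of the 3 genes both 4OHT libraries lay above both EtOH libraries, and under median-ratio scaling none passed, with adjusted p between 0.106 and 0.120. The other subunit genes did not pass: Eif2b4 (delta), with both 4OHT libraries above both EtOH libraries, had 38.9 and 34.0 RPKM with 4OHT against 32.4 and 25.4 RPKM with EtOH (log2 change 0.33, limma adjusted p = 0.120), and Eif2b2 (beta) had 61.3 and 40.5 RPKM with 4OHT against 69.9 and 51.4 RPKM with EtOH (log2 change -0.26, limma adjusted p = 0.189). Eif2a and Eif2d, whose products can deliver initiator tRNA without eIF2, were between 39.5 and 64.0 RPKM and between 40.1 and 52.3 RPKM, and neither passed.

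The eIF3 scaffold has 13 measured subunit genes, of which 2 rose and 11 did not pass, with a median log2 change of 0.26. Of all genes tested 22.2% rose, so the count is no result about eIF3. Eif3g, which encodes an RNA-binding subunit, had 250.4 RPKM in delta/delta and 183 RPKM in delta/+ cells with 4OHT, against 162 and 136 RPKM with EtOH. The rise was 1.54-fold in delta/delta and 1.35-fold in delta/+ cells (log2 change 0.52, SE 0.13, limma adjusted p = 0.0308; 0.112 under median-ratio scaling). Eif3a, the largest subunit, had 125 and 191 RPKM with 4OHT, against 92.8 and 127 RPKM with EtOH. It rose within each genotype (log2 change 0.51, SE 0.13, limma adjusted p = 0.0346; 0.141 under median-ratio scaling), but the conditions overlapped, since the 4OHT library of delta/delta cells lay below the EtOH library of delta/+ cells.

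Subunit transcripts of eIF3 were far from equal in level, although the subunits meet in 1 complex. Eif3k was the highest, at 423 RPKM in delta/delta and 311 RPKM in delta/+ cells with 4OHT, against 403 and 327 RPKM with EtOH. Eif3h came next, at 412 and 297 RPKM with 4OHT against 385 and 298 RPKM with EtOH. Eif3k was between 1.03 and 1.10 times Eif3h within each library, a difference smaller than that between the genotypes for either gene. Eif3j, whose product is only loosely attached, was the lowest, at 9.78 and 5.65 RPKM with 4OHT against 5.18 and 4.81 RPKM with EtOH (log2 change 0.50, SE 0.19, limma adjusted p = 0.103). Eif3k was thus 43.3 and 55.0 times Eif3j per length with 4OHT in delta/delta and delta/+ cells, against 77.9 and 67.9 times with EtOH. The annotation used here has no gene under the name Eif3j. It has Eif3j1, which shares 19.0% of its exonic bases with Spg11 on the opposite strand. How reads shared between gene copies were counted is not given, so the low level of Eif3j may depend on it. The summed level of the 13 genes was 2462 and 2216 RPKM with 4OHT, against 2088 and 1965 RPKM with EtOH. Among the rest, Eif3b came nearest to the threshold, at 161 and 130.5 RPKM with 4OHT against 116 and 107 RPKM with EtOH (log2 change 0.38, limma adjusted p = 0.0746). Eif3d shares 43.3% of its annotated exonic bases with the antisense gene Gm17638, and the use of strand in counting is not given.

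**Figure D2:**
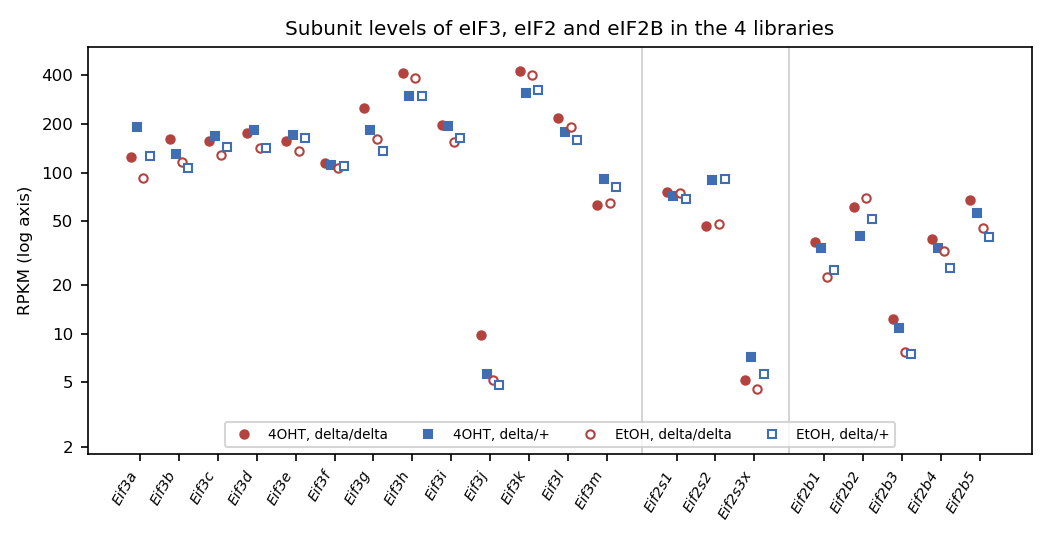
RPKM (log axis) of each subunit gene of eIF3, eIF2 and eIF2B in the 4 libraries, with 1 point per library marked by condition and genotype as in the legend. Eif3k and Eif3h stand at 297 RPKM or more and Eif3j and Eif2s3x under 10 RPKM in every library, while the conditions lie close together within most genes.

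The genes of eIF5, eIF5A, eIF5B and eIF6 included the most abundant gene and a gene whose call turned on scaling. Eif5a, whose hypusine-bearing product helps the ribosome through stretches that stall it, had 1018 RPKM in delta/delta and 954 RPKM in delta/+ cells with 4OHT, against 508 and 572 RPKM with EtOH. Every 4OHT library was above every EtOH library, 2.01-fold in delta/delta and 1.67-fold in delta/+ cells. The log2 change was 0.87 (SE 0.12, limma adjusted p = 0.00726), and 0.66 (adjusted p = 0.0196) under median-ratio scaling. By level it ranked 65th and 60th of all rows of the table with 4OHT, against 129th and 103rd with EtOH. Its relative Eif5a2 had 2.84 and 2.76 RPKM with 4OHT, against 4.08 and 3.30 RPKM with EtOH, and did not pass (log2 change -0.30, SE 0.16, limma adjusted p = 0.209). Eif5a was 359 and 345 times Eif5a2 with 4OHT in delta/delta and delta/+ cells, against 124 and 173 times with EtOH. Neither enzyme that places hypusine on eIF5A passed: Dhps was between 11.4 and 16.4 RPKM, and Dohh had 81.2 and 39.6 RPKM with 4OHT against 70.9 and 42.8 RPKM with EtOH (log2 change 0.04, limma adjusted p = 0.844).

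Eif5, which encodes the activator of the eIF2 GTPase, had 47.0 RPKM in delta/delta and 77.6 RPKM in delta/+ cells with 4OHT, against 73.3 and 95.7 RPKM with EtOH. Its level was lower with 4OHT in each genotype, but the conditions overlapped. It missed the threshold on the deposited scale (log2 change -0.46, SE 0.15, limma adjusted p = 0.0621) and passed as lower under median-ratio scaling (-0.67, adjusted p = 0.0336). Eif5b, whose GTPase product joins the ribosomal subunits, had 34.7 and 59.7 RPKM with 4OHT, against 32.4 and 49.8 RPKM with EtOH (log2 change 0.18, limma adjusted p = 0.361). Eif6, which encodes a factor that keeps the large subunit apart, had 66.6 and 49.9 RPKM with 4OHT, against 49.8 and 48.9 RPKM with EtOH (log2 change 0.22, limma adjusted p = 0.315). The 3 Argonaute genes did not pass for 4OHT; Eif2c1 came nearest, at 13.2 and 11.6 RPKM with 4OHT against 8.71 and 9.37 RPKM with EtOH (log2 change 0.41, SE 0.15, limma adjusted p = 0.0852).

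**Figure D3:**
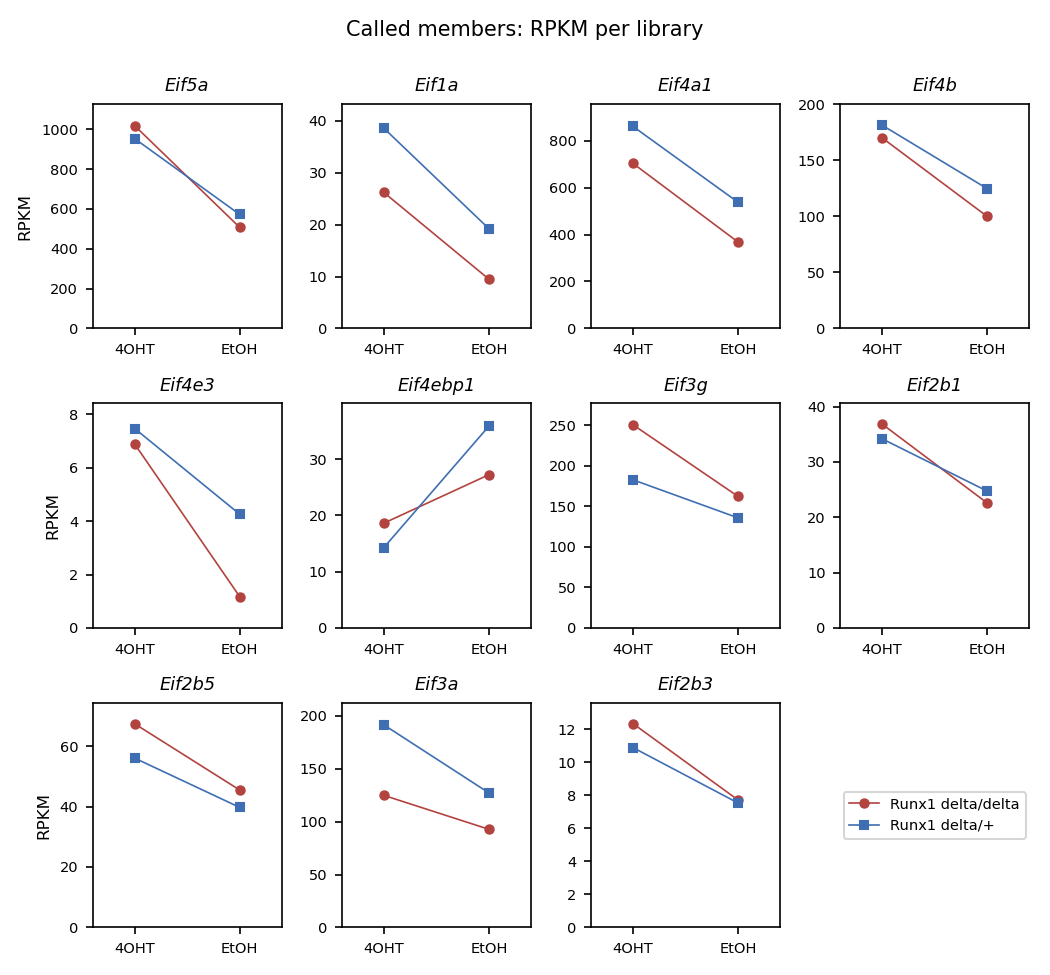
RPKM (vertical axis from 0) of the genes that passed for 4OHT, 1 panel per gene, with the 4OHT libraries at the left and the EtOH libraries at the right and a line joining the libraries of a genotype. Both lines fall towards EtOH in 10 panels and climb towards EtOH in that of Eif4ebp1; the points overlap between conditions in the Eif3a panel and in no other.

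By Kal's Z-test between single libraries, as given in the authors' deposited table, 7 of the 51 genes were higher at an FDR under 0.05 in delta/delta cells (Eif3b, Eif3g, Eif4a1, Eif4b, Eif4ebp2, Eif4g1 and Eif5a), against 9.63% of the 9595 tested genes in either direction. The authors' deposited table has 4 higher in delta/+ cells (Eif3a, Eif4a1, Eif4b and Eif5a), against 4.64% of those genes, and none lower in either. Eif4a1, Eif4b and Eif5a are in both lists.

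The genes that regulate initiation or work beside it were counted from lists chosen with earlier results of these data known. Of 8 genes of eIF2 alpha phosphorylation, 3 fell and 1 rose, against 10.2% and 22.2% of all genes, with a median log2 change of -0.19. Eif2ak1, which encodes the haem-regulated kinase HRI of red cell precursors, had 49.3 RPKM in delta/delta and 47.9 RPKM in delta/+ cells with 4OHT, against 138 and 91.9 RPKM with EtOH (log2 change -1.20, SE 0.17, limma adjusted p = 0.00836). The erythroid markers fell in the same libraries, as given above, and their part in this fall was not tested. Eif2ak2, which encodes the RNA-activated kinase PKR, also fell (log2 change -0.88, limma adjusted p = 0.0103), as did Ppp1r15a, which encodes the stress-induced phosphatase subunit GADD34 (log2 change -1.19, limma adjusted p = 0.0191). Eif2ak4, which encodes the amino acid sensor GCN2, rose by 0.58 (limma adjusted p = 0.0335) and did not pass under median-ratio scaling. Under that scaling 4 of the 8 genes fell and none rose, against 13.8% and 12.7% of all genes. The added fall was that of Ppp1r15b (limma adjusted p = 0.0305).

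Of 13 tested genes of mTORC1 and MNK signalling, 2 fell and none rose, against 10.2% and 22.2% of all genes, with a median log2 change of -0.15. Under median-ratio scaling 4 fell, Rheb and Sesn2 being added, and none rose, against 13.8% and 12.7% of all genes. Tsc2, which encodes an inhibitor of mTORC1, had 16.9 RPKM in delta/delta and 12.3 RPKM in delta/+ cells with 4OHT, against 52.3 and 29.2 RPKM with EtOH (log2 change -1.38, SE 0.16, limma adjusted p = 0.00582). Mknk1, which encodes a kinase that phosphorylates eIF4E, had 32.4 and 28.8 RPKM with 4OHT, against 56.5 and 57.8 RPKM with EtOH (log2 change -0.88, SE 0.14, limma adjusted p = 0.0102). Of 15 tested partners at the cap, the poly(A) tail and the scanning ribosome, 4 rose and none fell, against 22.2% and 10.2% of all genes, with a median of 0.22: the helicase gene Dhx29 by 0.79, the poly(A)-binding protein inhibitor gene Paip2b by 0.74, the RNA-binding protein gene Larp1 by 0.56 and the reinitiation factor gene Denr by 0.54 in log2 units (limma adjusted p between 0.0139 and 0.0326). Under median-ratio scaling Dhx29 and Paip2b still passed, Larp1 and Denr did not, and Paip2 fell (-0.64, adjusted p = 0.0260).

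Downstream of initiation, 3 of 11 tested elongation and termination factor genes rose and none fell (Etf1, Eef1g and Eef1e1; median log2 change 0.20), and none passed under median-ratio scaling. Of all genes tested, 22.2% rose and 10.2% fell. Of 9 mitochondrial translation factor genes 4 rose and none fell, with a median of 0.25. The elongation factor gene Tufm led them, with 80.2 RPKM in delta/delta and 84.0 RPKM in delta/+ cells with 4OHT, against 35.4 and 41.0 RPKM with EtOH (log2 change 1.09, SE 0.13, limma adjusted p = 0.00631), followed by Tsfm, Gfm1 and Mrrf. Of 20 cytosolic aminoacyl-tRNA synthetase genes 4 rose (Wars, Rars, Farsb and Kars) and 2 fell (Cars and Aars), with a median of 0.15. Both synthetase counts are near those shares. Under median-ratio scaling 3 of the mitochondrial genes rose, and 1 synthetase gene rose and 2 fell, against 12.7% and 13.8% of all genes.

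Set by genotype, Runx1 delta/delta against Runx1 delta/+ over both culture conditions, 2 of the 51 genes were higher and 4 lower. That is 11.8% of them, against 11.6% of all genes tested, with 4.68% of all genes higher and 6.91% lower, so the count is at the background. Under median-ratio scaling 2 were higher and 2 lower, Eif1a and Eif5b no longer passing, against 4.39% and 4.42% of all genes (8.81% in either direction). With globin genes left out 1 was higher and 10 lower, against 3.27% and 11.9% of all genes (15.2% in either direction). The median log2 difference was 0.04 for the 51 genes and -0.03 for all genes. RPKM values did not overlap between the genotypes for 12 genes higher in delta/delta cells (23.5%, against 17.0% of all genes) and 12 lower (23.5%, against 21.4% of all genes). For 24 of the 51 genes the genotype difference was larger in size than the change with 4OHT. The share of all genes for which this holds was not computed.

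Eif4a2 differed most. It had 30.1 RPKM with 4OHT and 29.5 RPKM with EtOH in delta/delta cells, against 79.2 and 53.3 RPKM in delta/+ cells (log2 difference -1.10, SE 0.17, limma adjusted p = 0.0290). Eif4a1 was thus 23.4 times Eif4a2 with 4OHT and 12.5 times with EtOH in delta/delta cells, against 10.9 and 10.1 times in delta/+ cells. Eif2s2 had 46.7 RPKM with 4OHT and 48.2 RPKM with EtOH in delta/delta cells, against 90.5 and 90.7 RPKM in delta/+ cells (log2 difference -0.92, SE 0.13, limma adjusted p = 0.0252). The beta subunit transcript was therefore 0.615 and 0.641 times the alpha subunit transcript in delta/delta cells, against 1.26 and 1.33 times in delta/+ cells. Eif5b was also lower in delta/delta cells (log2 difference -0.69, SE 0.14, limma adjusted p = 0.0392), and 16.8% of its exonic bases are shared with Rev1 on the opposite strand. Eif1a was the single gene that passed in both comparisons; it was lower in delta/delta cells (log2 difference -0.74, SE 0.16, limma adjusted p = 0.0454), although its genotypes overlapped.

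The genes that were higher in delta/delta cells were Eif1b and an Argonaute. Eif1b had 73.2 RPKM with 4OHT and 67.2 RPKM with EtOH in delta/delta cells, against 45.8 and 40.3 RPKM in delta/+ cells (log2 difference 0.69, SE 0.13, limma adjusted p = 0.0359). Its genotypes did not overlap, and 12.7% of its exonic bases are shared with the antisense gene D830035M03Rik. Eif2c2, which encodes the slicing Argonaute AGO2, had 26.0 RPKM with 4OHT and 25.3 RPKM with EtOH in delta/delta cells, against 16.5 and 15.7 RPKM in delta/+ cells (log2 difference 0.64, SE 0.13, limma adjusted p = 0.0430). A further 7 genes differed by at least 0.5 on the log2 scale without passing: Eif2b2 and Eif4e2 were above 0, and Eif2c3, Eif3a, Eif4e3, Eif4ebp3 and Eif5 below 0. With no filter on low values none of the 51 and none of all genes passed for genotype in limma. At an unadjusted p under 0.05 there were then 18 of the 51, against 3906 of all 17213 genes.

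**Figure D4:**
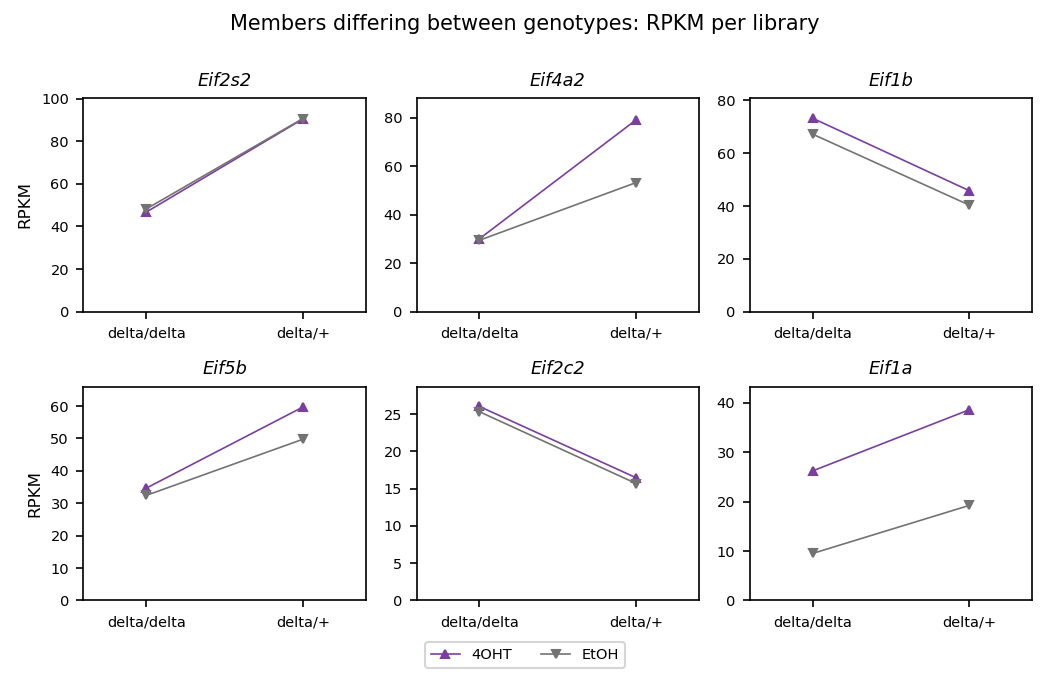
RPKM (vertical axis from 0) of the 6 genes that passed for genotype, 1 panel per gene, with Runx1 delta/delta at the left and Runx1 delta/+ at the right and a line joining the libraries of a condition. Eif2s2 and Eif2c2 show nearly the same levels in both conditions of a genotype, and in the Eif1a panel the genotypes overlap.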

How the data were processed

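RNA sequencing was analysed in 4 libraries, 4OHT and EtOH cultures of Runx1 delta/delta (replicate 1) and Runx1 delta/+ cells (replicate 2). Libraries were made with a TruSeq or a NEBNext kit, per the labels' protocols, with no record of which library had which in the sources used here. The build is mm 9, per the submitters' processing notes. No source used here names the aligner, the counting rule, the gene models or whether strand was used. The authors deposited RPKM per gene and library, and, per the file headers, a fold, a p-value and its FDR-corrected form for each replicate number, from Kal's Z-test.

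Genes averaging 1 RPKM or more were fitted with limma 3.58.1 (R 4.3.3) on log2(RPKM + 1), with treatment and genotype as terms and a trended prior, two-sided, with Benjamini-Hochberg adjustment at 0.05. The logarithm with a pseudocount of 1 understates the change of low genes. The residual degrees of freedom were 1, and those of the prior 4.38. Genotype is the replicate number, and the deviations from the group means of libraries with the same number correlated at 0.664 across genes. The files hold no counts, so no count model was used. Whole reads and library totals were recovered from the RPKM steps with a tolerance of 0.02 reads. Where several gene lengths fitted, the shortest was taken, which gives the fewest reads. The recovered reads served to describe depth and to give the counting error by which a gene was flagged. They did not enter the fit. The fit was tested on simulated data. Exon overlaps and transcript identities came from the GENCODE M21 annotation by symbol.

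The genes and lists were chosen with earlier results of these data known. Each gene matching the name rule could be named; in full were given, per complex, the gene with the smallest p for 4OHT, the largest rise and fall and the most abundant gene, and, of other lists, up to 4 genes with the smallest p. Further genes named were chosen after their values were seen. Alternatives were other pseudocounts (0.1 and 5), no filter or a minimum of 5 RPKM, median-ratio scaling, scaling without globin genes, a prior with no trend, no replicate block and leaving out each library.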

Additional observations from a re-analysis of the deposited data

Results flagged for a closer look

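Eif3k, the most abundant subunit gene of eIF3, had a log2 ratio of 4OHT to EtOH of 0.0699 in Runx1 delta/delta cells and of -0.0722 in Runx1 delta/+ cells, so the pairs point in opposite directions on the deposited scale. Under median-ratio scaling both pairs were below 0, at -0.16 in delta/delta and -0.25 in delta/+ cells. By the recovered reads each deposited ratio is beyond counting error, which does not cover the spread between cultures. The difference was not tested, since 1 pair of libraries per genotype leaves 0 degrees of freedom.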

How the results depend on the processing

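All 11 calls for 4OHT were lost without the genotype term. With no replicate block 0 of the 51 genes and 233 of all genes passed for 4OHT. At an unadjusted p under 0.05 there were 8 of the 51 and 2427 of all genes. The lowest adjusted p was then 0.077, that of Eif5a. Without single libraries and the block, 0 of the 51 (between 1 and 7 at an unadjusted p under 0.05) and between 3 and 245 of all genes passed for 4OHT, 3 of them without EtOH replicate 1. For genotype 0 of the 51 and 0 of all genes passed in limma without any one library and the treatment term. Without a library the lone sample is assumed to vary like the others. With the block kept, 5 of the 51 genes passed for 4OHT with no filter on low values and 5 under median-ratio scaling. For genotype the counts were 0 of the 51 and 0 of all genes with no filter (18 and 3906 at an unadjusted p under 0.05), 646 of all genes at a minimum of 5 RPKM and 11 of the 51 (1 higher, 10 lower) with globin genes left out, where 15.2% of all genes passed (3.27% higher, 11.9% lower).

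Of the 51 genes 19 changed direction under some alternative, and 0 of these 19 were called. Under median-ratio scaling the log2 change became -0.052 for Eif1b, -0.14 for Eif2c2, -0.048 for Eif2d, -0.16 for Eif2s1, -0.069 for Eif3e, -0.15 for Eif3f, -0.16 for Eif3h, -0.042 for Eif3l, -0.14 for Eif3m, -0.0092 for Eif4ebp3, -0.12 for Eif4h and -0.025 for Eif5b. With globin genes left out it became -0.015 for Eif2c2, -0.024 for Eif2s1, -0.015 for Eif3f, -0.024 for Eif3h and -0.0073 for Eif3m. Without single libraries and the block it ran from -0.21 to 0.51 for Eif1b, from -0.014 to 0.52 for Eif2a, from -0.55 to 0.032 for Eif2b2, from -0.28 to 0.38 for Eif2c2, from -0.24 to 0.51 for Eif2c3, from -0.024 to 0.11 for Eif2s1, from -0.49 to 0.45 for Eif2s2, from -0.0026 to 0.27 for Eif3e, from -0.19 to 0.28 for Eif3h, from -0.22 to 0.22 for Eif3k, from -0.20 to 0.32 for Eif3m, from -0.39 to 0.98 for Eif4a2, from -0.27 to 0.55 for Eif4ebp3, from -0.14 to 0.055 for Eif4enif1, from -0.12 to 0.29 for Eif4h and from -0.21 to 0.56 for Eif5b. The cause of these changes was not tested. Among the alternatives that kept the block, Eif1a, Eif4a1 and Eif5a passed in each, with limma adjusted p up to 0.0227 for Eif1a, 0.0443 for Eif4a1 and 0.0434 for Eif5a. The 11 genes passed at both other pseudocounts. DESeq2 was not run, since the table holds no counts. Precision is limited by 1 library per genotype and condition.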
